A study of Homo sapiens with 4 samples.

Results

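The SLIT genes, the ROBO genes and the microRNA genes MIR218-1 and MIR218-2, which lie in introns of SLIT2 and SLIT3, were followed before and after p53 was switched on in H1299 cells. The members were chosen by gene symbol: 9 genes, each with 1 probe set that the platform annotation assigns to that symbol alone, of 18417 genes measured. The set was chosen for the joint rise of SLIT2 and MIR218-1 in this same comparison, so the members' differences are given as a description, with no test. H1299, a human lung cancer line of the non-small cell type, has no p53 of its own, and the cells used were a stable tet-on derivative that makes mouse p53, labelled wtp53, when induced. Of the 4 arrays, 2 held RNA of uninduced cells of this line and 2 held RNA of the derivative treated with doxycycline, which turns the construct on, at 0.5 µg/mL for 24 hours. All arrays therefore carried the construct, the medium with tetracycline-free serum was the same, and no array held cells given doxycycline without the construct. The labels call the 2 arrays of a group technical replicates and name a single line, so the spread between arrays, and any p-value made from it, may be purely technical, and having only 4 arrays limits the precision. In a bulk RNA sample, fewer cells that make a transcript and less of it per cell cannot be told apart.

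SLIT proteins are large secreted ligands, best known for repelling growing axons at the midline, and ROBO proteins are their cell surface receptors. Binding of SLIT to ROBO recruits GTPase regulators and actin-binding proteins to the receptor's tail and changes how a cell migrates and adheres. In lung and other carcinomas SLIT2 is known as a gene often silenced by promoter methylation. MIR218-1 and MIR218-2 are processed from the introns of SLIT2 and SLIT3 and yield the same main product, miR-218-5p. ROBO1 and ROBO2 are among its described targets, so host gene, microRNA and receptor are usually drawn as one circuit.

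The sequences show what the 2 microRNA genes share and where they differ. They are taken from RefSeq on GRCh38.p14, which held entries for both. The first 2 lines give the hairpins with both mature arms in capitals, and the others give the mature products with the seed, bases 2 to 8, in capitals.
MIR218-1 hairpin, chr4:20528275-20528384, plus strand: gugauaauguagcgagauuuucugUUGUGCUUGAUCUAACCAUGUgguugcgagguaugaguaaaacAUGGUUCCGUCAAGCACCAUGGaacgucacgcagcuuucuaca
MIR218-2 hairpin, chr5:168768146-168768255, minus strand: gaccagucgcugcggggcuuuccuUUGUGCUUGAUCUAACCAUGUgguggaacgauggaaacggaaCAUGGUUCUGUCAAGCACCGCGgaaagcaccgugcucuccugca
miR-218-5p, from either gene: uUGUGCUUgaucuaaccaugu
miR-218-1-3p: aUGGUUCCgucaagcaccaugg
miR-218-2-3p: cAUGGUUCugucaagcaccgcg
Over their 110 bases the hairpins matched at 70 positions without gaps. The 21 bases of miR-218-5p were identical, and 0 other entries of the 2545 mature microRNAs in the table had its seed. The 22-base products of the other arm shared a longest run of 10 bases and had different seeds. The probe sets read hairpin RNA and any host transcript that still holds the intron. The mature microRNA itself was not measured.

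Across all genes, arrays of a group correlated at r = 0.997 uninduced and 0.995 induced (genes are not independent replicates), and the typical gene (median) had an SD of 0.0566 log2 units between the uninduced arrays and 0.0849 between the induced ones. The deposited values are log2 expression levels from RMA, so a difference of 1 is a 2-fold change. The known p53 targets CDKN1A and MDM2 rose 10.8-fold and 7.39-fold on the induced arrays (adjusted p = 6.09e-07 and 7.81e-07 in limma's test). With p-values adjusted by Benjamini-Hochberg and a threshold of 0.05, limma called 45.1% of all genes different between the groups, 20.6% higher and 24.6% lower on the induced arrays. The median difference over all genes was 0.0. No detection call was used, so dim genes have no stated lower limit of measurement.

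**Figure D1:**
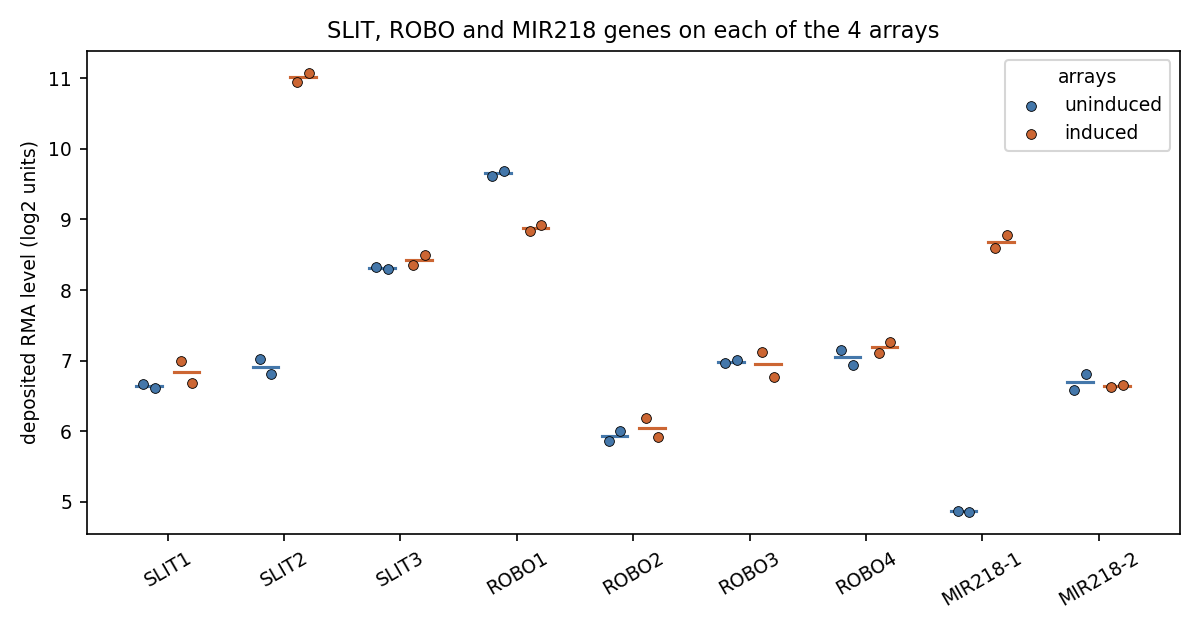
Deposited RMA levels (log2 units, vertical axis) of the 9 genes on each array; points are single arrays, lines are group means, with 2 arrays per group. SLIT2 and MIR218-1 sit far higher on the induced arrays and ROBO1 lower. For each of the other 6 genes the group means lie within 0.25 log2 units of each other.

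Among the ligands, SLIT2 (probe set 8094301), the midline repellent, read 7.02 and 6.81 log2 units on the uninduced arrays and 10.95 and 11.08 on the induced arrays. Both induced arrays were far above both uninduced ones. The difference was 4.10 log2 units, or 17.1-fold, with array SDs of 0.148 uninduced and 0.0919 induced (n = 2 arrays each). By size it was the rise ranked 13 of 18417 genes, a position that the choice of the gene already implies. SLIT1 (probe set 7935361), a ligand mainly of the nervous system, read 6.67 and 6.61 uninduced and 7.0 and 6.68 induced. Its induced arrays lay further from each other than the lower of them lay from the uninduced arrays, and the difference was 0.20 (SD 0.0424 and 0.226). SLIT3 (probe set 8115691), the ligand gene that hosts MIR218-2, read 8.33 and 8.30 uninduced and 8.35 and 8.49 induced. The groups were 0.105 apart, next to an SD of 0.0990 between the induced arrays. Of the 3 ligand genes, SLIT2 thus had a difference many times its array spread, while those of SLIT1 and SLIT3 were close to theirs.

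Among the receptors, ROBO1 (probe set 8088919), the broadly expressed SLIT receptor, read 9.62 and 9.69 uninduced and 8.83 and 8.92 induced. Both induced arrays were below both uninduced ones, by a mean of 0.78 log2 units or 1.72-fold (SD 0.0495 and 0.0636). This was the receptor gene with the clearest difference, opposite in sign to that of its ligand gene SLIT2. It was also a common size of difference here, ranking 1868 among the 18417 genes ordered from the most negative difference. ROBO2 (probe set 8081001), the receptor that lies beside ROBO1 on chromosome 3, read 5.86 and 6.0 uninduced and 6.18 and 5.92 induced. ROBO3 (probe set 7944882), which in commissural neurons tempers the response to SLIT, read 6.96 and 7.01 uninduced and 7.12 and 6.77 induced. ROBO4 (probe set 7952453), the receptor of endothelial cells, read 7.15 and 6.94 uninduced and 7.11 and 7.27 induced. For ROBO2, ROBO3 and ROBO4 the groups overlapped, with differences of 0.12, -0.04 and 0.145, and in each the arrays of at least 1 group lay further apart than the group means.

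MIR218-1 (probe set 8094340) read 4.87 and 4.86 uninduced and 8.59 and 8.78 induced. The induced arrays were 3.82 log2 units or 14.1-fold higher (SD 0.00707 and 0.134). Among 173 microRNA genes with a probe set of their own, this was the largest rise, which again the choice of the gene implies. MIR218-2 (probe set 8115730) read 6.58 and 6.81 uninduced and 6.63 and 6.65 induced. Both induced values fell between the uninduced ones, and the difference was -0.055 (SD 0.163 and 0.0141). So of the 2 genes that encode the same miR-218-5p, only the probe set of the copy inside SLIT2 read higher after induction by more than its array spread.

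Over the 9 genes, 5 had groups that did not overlap, 4 higher and 1 lower on the induced arrays. With 2 arrays a group, 66.8% of all genes had groups that did not overlap, 32.5% higher and 34.3% lower, so nothing is read from that count. The median difference over the 9 genes was 0.12, against 0.0 over all genes.

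The host gene and its intronic microRNA gene are the comparison the set was built on. SLIT2 and MIR218-1 differed by 4.10 and 3.82 log2 units, so the host's difference was 0.28 larger, with an SE of 0.16 from the array SDs. SLIT3 and MIR218-2 differed by 0.105 and -0.055, a gap of 0.16 (SE 0.14). These gaps are given as a description, like the values they come from. MIR218-1 read only 4.87 and 4.86 on the uninduced arrays. Whether those values lie at the lower limit of measurement was not tested.

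**Figure D2:**
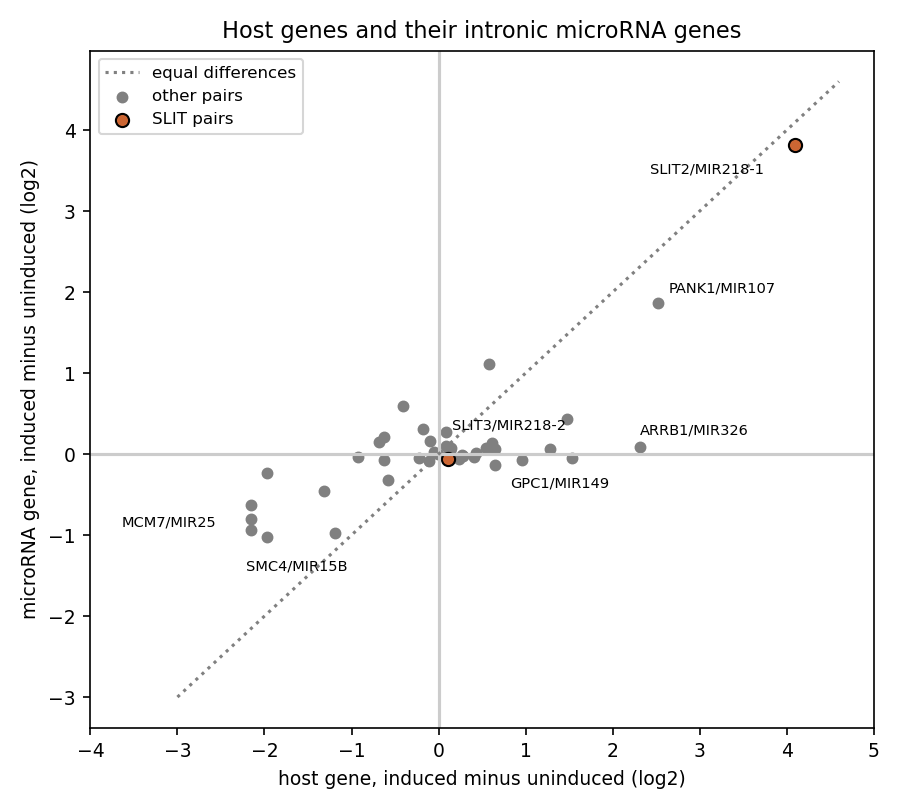
Difference between induced and uninduced arrays (log2) of host genes (horizontal axis) and of microRNA genes in them (vertical axis), for 43 pairs; the dotted line marks equal differences. SLIT2 with MIR218-1, at 4.10 and 3.82, lies near the line at the upper right, whereas ARRB1 with MIR326, at 2.31 and 0.085, lies well below it.

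Other host and microRNA pairs were read in the same way, 41 of them in 35 host genes. The PANK1 host gene, a pantothenate kinase, and its MIR107 rose by 2.525 and 1.865. ARRB1, which encodes beta-arrestin 1, rose by 2.31, whereas MIR326 within it had a difference of 0.085 (adjusted p = 0.599 in limma's test). GPC1, a heparan sulfate carrier that binds SLIT, rose by 1.535, and MIR149 within it had a difference of -0.05 (adjusted p = 0.783). Among hosts that fell, MCM7, a replication helicase subunit, had a difference of -2.16, and its MIR25, MIR106B and MIR93 had differences of -0.94, -0.805 and -0.625. SMC4, a condensin subunit, had one of -1.975 its MIR15B one of -1.025 and its MIR16-2 one of -0.23 (adjusted p = 0.195 in limma's test). Of the 12 pairs whose host differed at least 2-fold, 7 had a microRNA gene past the test, and all 7 went the way of the host. MIR25, MIR106B and MIR93, which share the host MCM7, are among the 7. Over all 41 pairs the microRNA gene passed in 11, next to 45.1% of all genes called. Over all 41 pairs both genes passed in 10, 9 of them in the same direction; the exception was PANK3, a neighbour of SLIT3, with -0.41 against 0.59 for MIR103A1. Over the 41 pairs the median size of the gap between host and microRNA was 0.525 log2 units. The difference of MIR218-1 was close in size to that of its host, in a pair chosen for its joint rise. MIR326 and MIR149 had differences near 0 in hosts that rose more than 2-fold. Whether their probe sets can register a change was not tested. Pairs in 1 host gene share that host's value and are not independent.

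The genes whose profiles over the 4 arrays were nearest to SLIT2, by the root mean square difference of values centred on each gene's mean, were DCLK1, which encodes a microtubule-binding kinase (0.0718 log2 units), PLK3 (0.0873), LAMP3 (0.113), LINC00324 (0.119) and TP53I3 (0.138). MIR218-1 stood at 0.158 from SLIT2, rank 8 among all other genes. Nearest to MIR218-1 were PLTP (0.0867), ACTA2 (0.0926), ALDH1L2 (0.0964), DQX1 (0.0997) and TP53I3 (0.102). TP53I3, a quinone oxidoreductase gene near both, is a known p53 target. With 4 arrays in 2 groups, this likeness mostly ranks genes by the size of their difference.

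The upstream sequences of SLIT2 and ROBO1 are shown because these were the ligand and the receptor gene with the clearest differences. Each is the 250 bases before a RefSeq start site on GRCh38.p14.
SLIT2, chr4:20251655-20251904, plus strand, with a TATAA in capitals: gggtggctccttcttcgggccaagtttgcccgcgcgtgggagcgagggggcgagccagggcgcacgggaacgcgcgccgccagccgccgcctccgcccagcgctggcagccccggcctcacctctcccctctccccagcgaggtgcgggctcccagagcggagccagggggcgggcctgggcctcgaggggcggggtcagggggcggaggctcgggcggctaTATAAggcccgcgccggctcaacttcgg
ROBO1, the start site inside the gene, chr3:79019460-79019709, minus strand, with a p53 half-site match in capitals: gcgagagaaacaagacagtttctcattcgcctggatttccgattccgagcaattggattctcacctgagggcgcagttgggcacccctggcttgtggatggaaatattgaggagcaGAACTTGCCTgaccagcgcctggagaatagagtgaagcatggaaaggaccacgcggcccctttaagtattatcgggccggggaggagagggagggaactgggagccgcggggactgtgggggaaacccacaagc
In the windows of the table, which run from 250 bases before to 50 bases past the start, the SLIT2 window was 74.3% G and C with 36 CpG dinucleotides, against medians of 58.7% and 14 over 35116 windows. Its TATAA began 28 bases before the start, and 20.4% of all windows held TATAA on either strand. The palindromic consensus half-site of p53 was searched on both strands, where it had 0 matches in the SLIT2 window. The start site inside ROBO1 had 1 match, and 2 of the 3 ROBO3 windows had 1 match each. The other ROBO1 start, chr3:79767999-79768248, had 0. In all, 3 of the 11 windows of the 7 SLIT and ROBO genes held a match, next to 6.63% of all windows. A match is a run of letters and not a bound site, and the windows leave out introns and distal sequence. In the same build the MIR218-1 hairpin lies 276.4 kb beyond the SLIT2 start, and the MIR218-2 hairpin 532.9 kb beyond the SLIT3 start, each on its host's strand.

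Of the 6 measured neighbours of SLIT2, 2 rose and 4 fell. None had a difference near that of SLIT2, which the choice of SLIT2 for its large rise already implies. Over all genes 20.6% were called higher and 24.6% lower, so nothing is read from the counts of neighbours called. In the order of the RefSeq gene table, the nearest measured coding genes before SLIT2 were DCAF16, the condensin gene NCAPG and LCORL, which fell, with differences of -1.30 (SE 0.092), -3.31 (SE 0.11) and -0.945 (SE 0.092). Beyond it, PACRGL and the potassium channel partner gene KCNIP4 rose by 0.895 (SE 0.084) and 0.435 (SE 0.085), and the adhesion receptor gene ADGRA3 fell by 1.015 (SE 0.096). Beside SLIT3, the spindle checkpoint gene SPDL1 fell by 3.205 (SE 0.10), DOCK2 fell by 0.84 (SE 0.097) and PANK3 fell by 0.41 (SE 0.092), while RARS1, FBLL1 and FOXI1 did not pass the test. Around ROBO2 and ROBO1, the glycogen branching enzyme gene GBE1 rose by 1.32 (SE 0.091) and CHMP2B by 0.375 (SE 0.12), and CNTN3, FRG2C, ZNF717 and VGLL3 did not pass. Near ROBO3 and ROBO4, HEPACAM rose by 1.02 (SE 0.11) and MSANTD2 by 0.635 (SE 0.082), CCDC15 fell by 2.265 (SE 0.13), and VSIG2, ESAM and HEPN1 did not pass. Of the 6 neighbours of SLIT1, 2 rose and 2 fell, all by less than 0.6: LCOR had a difference of 0.585, TLL2 of 0.305, TM9SF3 of -0.395 and RRP12 of -0.33. The adjusted p-values behind these calls ran from 8.53e-07 for SPDL1 to 0.0377 for TLL2 in limma's test.

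**Figure D3:**
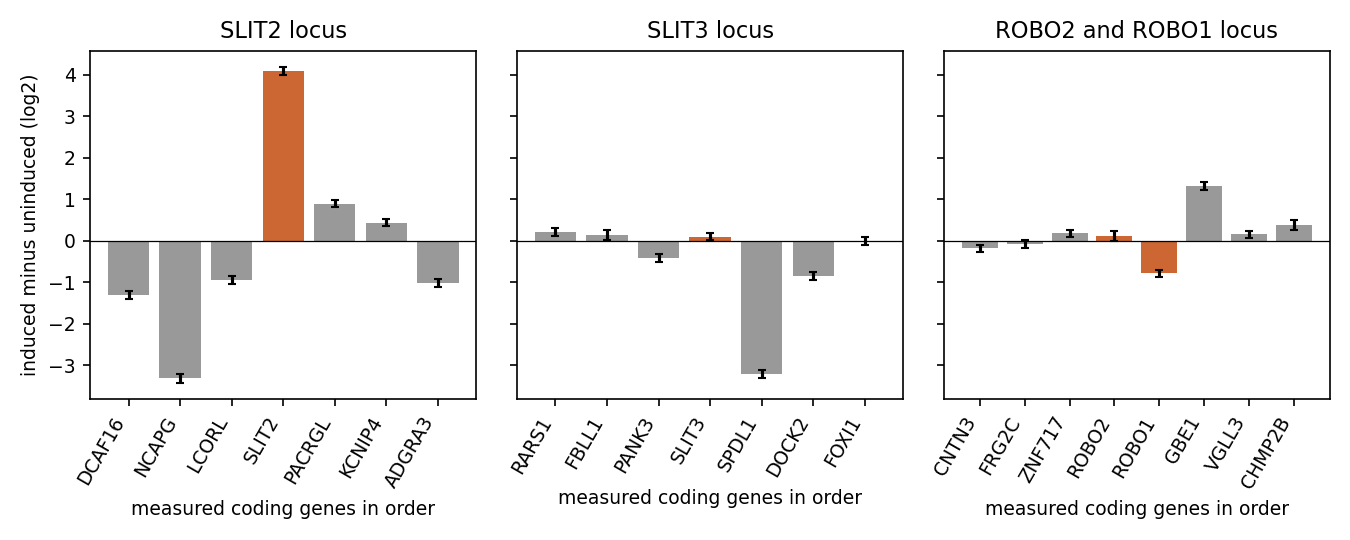
Difference between induced and uninduced arrays (log2, bars; error bars are limma's SE) of measured coding genes in gene order around SLIT2, SLIT3, and ROBO2 with ROBO1; orange bars are SLIT and ROBO genes. SLIT2 stands at 4.10 between LCORL at -0.945 and PACRGL at 0.895.

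Genes that carry the SLIT signal inside the cell moved both ways. Of 25 listed, 22 were measured, 7 rose, 7 fell and 8 did not pass, with a median difference of 0.008; 63.6% were called, next to 45.1% of all genes. MYO9B, a RhoGAP myosin that binds the ROBO1 tail, rose 3.66-fold (1.87 log2 units, SE 0.083, adjusted p = 2.72e-06 in limma's test). SOS2, a Ras and Rac exchange factor, rose 2.52-fold, and its relative SOS1, the form tied to ROBO, rose 1.66-fold. GSK3B, a kinase of the cytoskeleton and WNT pathways, rose 2.44-fold. SRGAP2, one of the SLIT-ROBO GTPase-activating proteins, fell by 1.21 (SE 0.086), whereas SRGAP1 rose by 0.51 (SE 0.087). ENAH, the actin regulator Mena, fell by 1.115 (SE 0.084) and CLASP2, a microtubule plus-end protein, fell by 1.065 (SE 0.11), while CLASP1 rose by 0.725 (SE 0.086). In the SRGAP and CLASP families 1 member thus rose and another fell, while both SOS genes rose. The small GTPase genes RHOA, RAC1 and CDC42 had differences of 0.005, 0.010 and 0.185 and did not pass the test.

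Surface partners, alternative ligands and makers of heparan sulfate, the sugar chain that SLIT and ROBO need to bind, were read as a list. More of its genes rose than fell, though its makers of heparan sulfate moved both ways. Over all genes 20.6% rose and 24.6% fell. With arrays centred on their medians, 13 of 17 calls in the list and 4648 of 8662 over all genes were rises. No test of the list against other genes was made. Of 27 listed, 25 were measured, 11 rose, 4 fell and 10 did not pass (60% called, next to 45.1% of all genes), with a median difference of 0.22. NTN1, the attractant netrin-1 whose receptor DCC is silenced by ROBO, rose 4.0-fold (2.0 log2 units, SE 0.083, adjusted p = 2.02e-06 in limma's test). The uninduced arrays read 8.81 and 8.76 for NTN1 and the induced ones 10.76 and 10.81. EXT2, a heparan sulfate polymerase, rose 3.66-fold, whereas its partner EXT1 fell by 0.51 (SE 0.083). The proteoglycan genes GPC1, SDC3 and SDC1 rose 2.90-fold, 1.82-fold and 1.59-fold, while SDC2 had a difference of -0.005 and did not pass. HS2ST1, the 2-O-sulfotransferase, fell by 1.395 (SE 0.087) and HS6ST1, a 6-O-sulfotransferase, rose by 0.705 (SE 0.081). NELL2, a ligand of ROBO3, rose 1.99-fold. NEDD4, a ubiquitin ligase that lowers surface ROBO1, fell by 1.04 (SE 0.082), and its adaptors NDFIP1 and NDFIP2 rose by 0.365 and 0.355. The netrin receptor DCC had a difference of -0.05 and did not pass.

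Genes described elsewhere as miR-218 targets, ROBO1 and ROBO2 left out, also moved both ways. Of 25 listed, 22 were measured, 6 rose, 8 fell and 8 did not pass (63.6% called, next to 45.1% of all genes), with a median difference of 0.04. GLCE, the epimerase that modifies heparan sulfate, fell by 1.55 (SE 0.11) and LAMB3, a laminin chain, fell by 1.035 (SE 0.10). BIRC5, which encodes survivin and peaks in mitosis, fell by 1.955 (SE 0.12), or had a difference of -1.03 with its probe sets averaged, and TPD52 fell by 1.07 (SE 0.10). IKBKB, the kinase of NF-kB activation, rose 2.60-fold and the ephrin gene EFNA1 rose 2.31-fold. Over all genes too, more fell (24.6%) than rose (20.6%). With arrays centred on their medians the list had 8 rises among 16 calls, and over all genes 4648 of 8662 calls were rises. The excess of falls, in the list and over all genes, was thus absent under that scaling. No test of the list against other genes was made, and no target site was read from sequence.

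**Figure D4:**
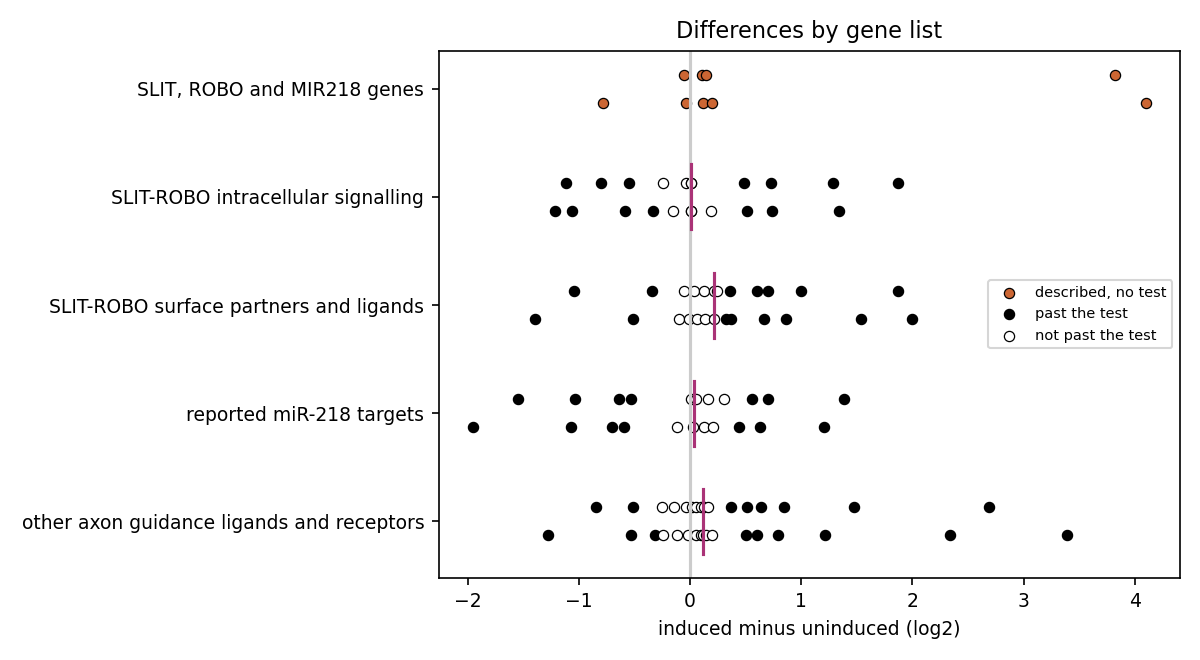
Difference between induced and uninduced arrays (log2, horizontal axis) for each gene of the lists; filled points passed limma's test, open points did not, orange points are the 9 SLIT, ROBO and MIR218 genes, given with no test, and vertical lines are list medians. SLIT2 and MIR218-1 lie beyond every point of the 4 lists, which their choice for a large joint rise makes likely. All 4 list medians lie between 0 and 0.25.

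Markers of cell types in which these genes are best known were read beside them, next to 45.1% of all genes called. Of 9 endothelial markers, where ROBO4 belongs, 1 passed the test, TEK, with a difference of 0.34, and their levels lay between 4.555 and 7.585 uninduced and 4.6 and 7.58 induced. The mean over these markers was 6.017 and 6.054 on the uninduced arrays and 6.099 to 6.229 on the induced ones. CDH5 and PECAM1, which define endothelium, had differences of 0.195 and 0.12. Of 10 neuronal markers, 1 rose and 1 fell: SYT1, a synaptic vesicle calcium sensor, by 2.135 (SE 0.085), and SNAP25, with a difference of -0.375 (SE 0.082). RBFOX3, DCX and ELAVL4 did not pass, with differences of 0.13, 0.105 and 0.115. SYP and STMN2 did not pass either, with differences of -0.295 and -0.27. The list's mean, which includes the large rise of SYT1, ran from 6.599 to 6.618 uninduced and from 6.781 to 6.865 induced. The median difference of the list was 0.122. The 6 fibroblast markers had differences from -0.125 (DCN) to 0.045 (LUM) and did not pass the test. Of 5 blood markers 2 rose, ITGAM by 1.335 and CD3E by 0.26. Of 7 markers of epithelium and of the carcinoma line, the keratin gene KRT8 rose by 1.145 (SE 0.13) and the vimentin gene VIM fell by 0.40 (SE 0.084), while KRT18, KRT7, KRT19, EPCAM and CDH1 did not pass, with differences from -0.30 for KRT7 to 0.055 for EPCAM. Levels of different genes are not comparable on these probe sets, and the part of other cell types in the results was not tested.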

How the data were processed

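Gene expression was measured in the H1299 line with a whole-transcript Affymetrix array. The deposited values are log2 levels per probe set, which the authors made with Affymetrix Expression Console and RMA, per the submitters' processing notes (versions and genome build: not given in the sources used here). RMA equalises the arrays' distributions, so a shift of all genes together would not show. The table held 33297 rows, of which 19460 carried 1 gene symbol. Each gene was represented by its brightest row; every member had 1 row. Means, SDs and differences came from these values. limma 3.58.1 in R 4.3.3 (lmFit, eBayes, no covariate, two-sided, Benjamini-Hochberg over 18417 genes) was fitted to all genes, members included. Its p-values are given only for genes other than the members, while the shares of all genes called count the members too. The script was tested on simulated data. Named genes were the members, the 5 nearest profiles, in each list the 4 largest called differences and those of at least 2-fold, pairs with the largest host differences, and 3 neighbours a side; others, such as SOS1, SRGAP1, CLASP1, EXT1, EFNB2, DCC, NDFIP1, NDFIP2, the syndecans, HS6ST1, NELL2, the GTPases, the markers and the SLIT1 neighbours, were named after their values were seen. Members and lists were chosen with earlier results of these data known. Sequences came from RefSeq, with no genome used here. Figures used Python 3.11.15 and matplotlib 3.10.9.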

Additional observations from a re-analysis of the deposited data

How the results depend on the processing

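The alternatives were quantile normalization again, centring on array medians, leaving out dim probe sets, averaging probe sets, a robust prior with an intensity trend, testing all rows, the replicate number as a block, and leaving out each array. Without 1 array in turn, SLIT2 stayed between 3.995 and 4.205 log2 units higher, MIR218-1 between 3.725 and 3.915, and ROBO1 between -0.735 and -0.825, while MIR218-2 ran from -0.17 to 0.06. Centring moved ROBO1 to -0.705, and SLIT3 moved to 0.18 with it or with quantile normalization. Centring, which moved the median over all genes to 0.075, also turned the sign of MIR218-2 and ROBO3. Dropping dim probe sets left out every member but SLIT2, SLIT3 and ROBO1. The gap between SLIT2 and MIR218-1 ran from 0.18 to 0.38 and that between SLIT3 and MIR218-2 from 0.03 to 0.29. The count of genes past limma's test, 8311, ran from 4959 to 6904 without 1 array, lowest without an uninduced array (5043 without the first, 4959 without the second). It was 8550 with quantile normalization, 8662 with centring (4648 of them higher), 8788 with the robust prior, 7515 without dim probe sets, 8312 with averaged probe sets and 10773 over all rows. Without 1 array, list calls were 10 to 14 for signalling, 10 to 13 for surface partners, 11 to 14 for miR-218 targets and 13 to 15 for other guidance genes; centring gave 14, 17, 16 and 18, and quantile normalization 14, 16, 15 and 19. With the replicate block 7820 genes passed, and 13, 14, 15 and 18 of these lists; same-numbered arrays deviated together weakly (r = 0.225 over genes), but the labels do not say that a number pairs arrays. The 23 list genes named by the rule kept direction and call in all 252 values under alternatives, though averaging probe sets moved BIRC5 from -1.955 to -1.03. Pairs of all microRNA genes inside 1 measured gene of the same strand, added after seeing the data, gave 9 called the same way as their host, as the listed pairs did.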

Other observations

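In a list of other axon guidance genes, read beside SLIT and ROBO, more genes rose than fell. Over all genes 20.6% rose and 24.6% fell, and no test of the list against other genes was made. Of 34 listed, 33 were measured, 12 rose, 5 fell and 16 did not pass limma's test (51.5% called, next to 45.1% of all genes), with a median difference of 0.12. DRAXIN, a secreted repellent that binds netrin and DCC, rose 10.5-fold, from 7.71 and 7.68 log2 units uninduced to 11.03 and 11.14 induced. EFNB1, a transmembrane ephrin, rose 6.45-fold and EPHB4, an ephrin-B receptor, 5.05-fold, while EFNB2, its usual ligand, fell by 0.845 (SE 0.089). PLXNB2, a semaphorin receptor, rose 2.78-fold and EPHA2 2.32-fold. EFNA5 fell by 1.28 (SE 0.084). The adjusted p-values of these genes in limma's test ran from 5.89e-07 for DRAXIN to 0.000155 for EFNB2.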
